A study of Mus musculus with 6 samples.

Results

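Expression of 8 mouse genes of the insulin-like growth factor (IGF) system was measured by bulk RNA-seq in 2 cell types. They are the ligand gene *Igf1*, the receptor gene *Igf1r* and the 6 binding protein genes *Igfbp2*, *Igfbp3*, *Igfbp4*, *Igfbp5*, *Igfbp6* and *Igfbp7*. The members were taken by gene symbol from the gene count tables of the study, which list 16279 genes between them. All 8 are listed for cardiac precursor cell cultures (CPCCs) and 6 are listed for mouse embryonic stem cells (mESCs), *Igf1* and *Igfbp6* being listed for CPCCs only.

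Each cell type was sequenced as 3 libraries. The mESCs were male F1 hybrids labelled C57BL/6 x CAST/EiJ (the methods give C57BL/6J mothers), grown in 2i medium with LIF and serum, and came from single-cell-derived clones of separate blastocyst lines. The CPCCs carried the same hybrid genome and sex: they were made from those clones by way of embryoid bodies treated with ascorbic acid, and were then passaged in serum with EGF and FGF2. Both groups were cultured cells without a deletion or transgene named in the labels. A CPCC library is a mixed culture, so in these bulk data fewer cells of a type and less RNA per cell cannot be told apart. The columns do not give which library came from which clone, and libraries are named here by their columns: S01, S02 and S03 are mESC, S04, S05 and S06 are CPCC.

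The mESC libraries held between 6442639 and 6907330 counts and the CPCC libraries between 8468819 and 11436062. Levels below are counts per 1000000 counts of the library total (CPM). Each table lists only genes with at least 10 counts over its 3 libraries. A gene missing from a table is set at a floor of 3 counts per library, between 0.434 and 0.466 CPM in mESCs. The 8 mESC markers checked (*Pou5f1*, *Nanog*, *Sox2* and others) summed to 5250 to 5595 CPM in mESCs and to 107.5 to 295.0 CPM in CPCCs. Of 9 cardiac precursor markers, 8 were listed in CPCCs, with a sum of 43.9 to 139 CPM, against 4 of 9 and 3.97 to 4.63 CPM in mESCs. *Nkx2-5*, *Mef2c*, *Hand1*, *Hand2* and *Myh6* were not listed in mESCs, and *Tbx5* was not listed in CPCCs. Other marker lists had larger sums. Mesenchymal or fibroblast markers summed to 12.1 to 18.5 CPM in mESCs (4 of 8 listed, without *Col1a2*, *Col3a1*, *Postn* and *Twist1*) and to 6228 to 8904 CPM in CPCCs (8 of 8). Smooth muscle markers summed to 4.35 to 4.56 CPM (2 of 5 listed, without *Tagln*, *Cnn1* and *Myh11*) and to 6930 to 10740 CPM (5 of 5). Parietal or primitive endoderm markers, 7 of 7 listed in both, were at 1108 to 1247 CPM in mESCs and 7474 to 10330 CPM in CPCCs. Neural markers (5 and 6 of 6 listed) were at 80.9 to 91.3 CPM and 783 to 900.5 CPM. Endothelial markers (2 and 5 of 6 listed) had a lower sum in CPCCs, at 15.2 to 25.8 CPM against 91.4 to 101.4 CPM. The mESC sum came from *Pecam1* and *Tek* only. *Cdh5*, *Kdr* and *Emcn* went the other way, being listed for CPCCs only, and *Tie1* was listed in neither cell type. Every change described below moved together with these marker sums, and their part in the results was not tested.

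IGF1 and IGF2 are secreted hormones that bind the type 1 IGF receptor, a tyrosine kinase of the insulin receptor family. The receptor signals through the insulin receptor substrates to PI3K and AKT, and through SHC and GRB2 to the MAP kinases. In the extracellular space most IGF is held by the IGF binding proteins, which block or prolong its action until proteases such as PAPPA release it. IGFBP7 is a related protein with low affinity for IGFs. In the heart the pathway is known for the growth and survival of cardiomyocytes.

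Sequence upstream of the start is shown for the 5 binding protein genes that were tested between the cell types, since all of them changed in one direction and their promoters can be compared side by side. RefSeq promoter windows (GRCm38.p6) matched all 8 members, with a second window for *Igfbp2*. Each line holds 120 bases, 5′ to 3′ on the strand of the gene, that end just before the start used in the RefSeq window or before the GENCODE start where that lies further out. None of these bases is exonic in GENCODE M21, although RefSeq's gene records for *Igfbp3* and *Igfbp4* begin further upstream. Capitals mark 1 of 3 TATA-like words (TATAAA, and its variants TATATA and, one letter longer, TATTTAA) within the last 60 bases, and GGGCGG on either strand, which reads as CCGCCC when it lies on the other strand. The TATA-like words were searched on the strand of the gene only. The stretches lie at chr1:72824360-72824479 (plus strand) for *Igfbp2*, chr11:7213924-7214043 (minus) for *Igfbp3*, chr11:99041124-99041243 (plus) for *Igfbp4*, chr1:72874885-72875004 (minus) for *Igfbp5* and chr5:77408046-77408165 (minus) for *Igfbp7*.
Igfbp2: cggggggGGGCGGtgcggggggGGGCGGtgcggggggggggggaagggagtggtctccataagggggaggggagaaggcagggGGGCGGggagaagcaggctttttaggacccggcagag
Igfbp3: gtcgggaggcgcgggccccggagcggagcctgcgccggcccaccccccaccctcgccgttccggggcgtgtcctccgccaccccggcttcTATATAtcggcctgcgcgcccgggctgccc
Igfbp4: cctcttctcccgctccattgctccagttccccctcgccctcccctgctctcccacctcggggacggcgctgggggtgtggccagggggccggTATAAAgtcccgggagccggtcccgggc
Igfbp5: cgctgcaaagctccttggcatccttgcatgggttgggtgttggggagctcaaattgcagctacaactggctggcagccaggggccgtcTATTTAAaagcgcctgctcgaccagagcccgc
Igfbp7: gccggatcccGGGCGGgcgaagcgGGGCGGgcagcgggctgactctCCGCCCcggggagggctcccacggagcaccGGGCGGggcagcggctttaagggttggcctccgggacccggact

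Counted from the printed ends, the TATA-like words fell close to one place in the 3 promoters that hold one. From -1 at the last printed base, TATATA began at -30 in *Igfbp3*, TATAAA at -28 in *Igfbp4* and TATTTAA at -32 in *Igfbp5*. Of these 3 stretches only that of *Igfbp5* ends at a GENCODE start (chr1:72874884) outside the RefSeq start (chr1:72874865). Counted from the RefSeq start, which the windows below use, its word lies further upstream than those of *Igfbp3* and *Igfbp4*. Over all 32851 RefSeq windows of 27025 genes, the last 60 bases before the start held TATAAA in 2.87%, TATATA in 1.56%, TATTTAA in 0.478% and any of the 3 in 4.53%. *Igfbp2* and *Igfbp7* held none of these words there but held GGGCGG, as did *Igf1r*, against 32.7% of all windows over the 250 upstream bases. GC content of those 250 bases was 77.6% for *Igf1r*, 74.0% for *Igfbp7*, 73.2% for *Igfbp3*, 69.2% for *Igfbp4*, 67.2% for *Igfbp2* (56.4% in its second window), 58.8% for *Igfbp5*, 52.8% for *Igf1* and 49.6% for *Igfbp6*, and the median of all windows was 52.4%.

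**Figure D1:**
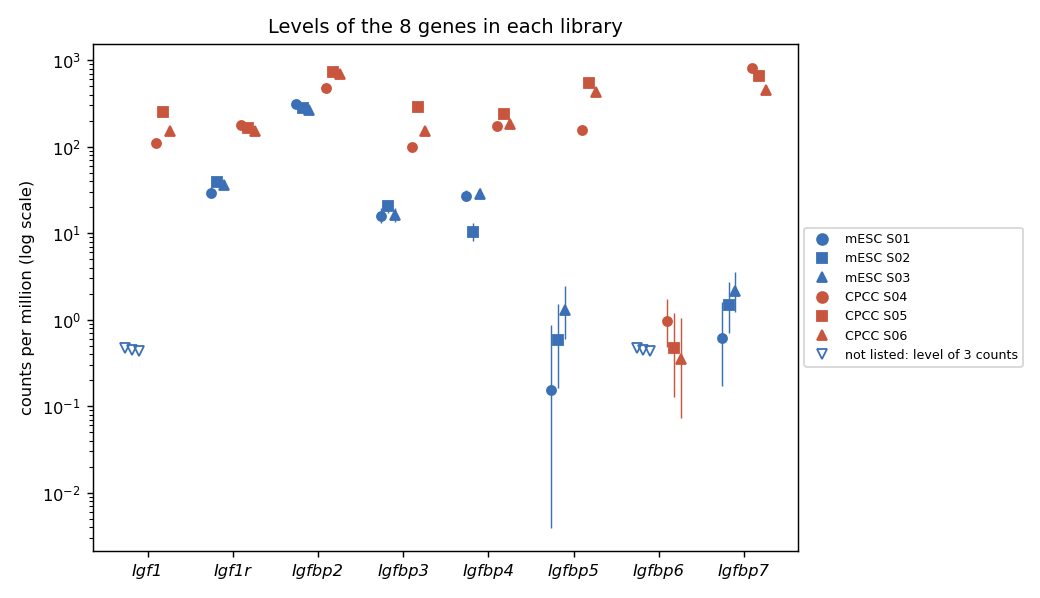
Levels of the 8 genes in each of the 6 libraries, in CPM on a log axis, with exact 95% Poisson intervals that cover counting error only. Blue marks mESC and red CPCC, and open triangles stand at 3 counts where a gene is not listed. In the 6 genes listed for both cell types every CPCC library lies above every mESC library.

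The ligand gene *Igf1* (ENSMUSG00000020053, chr10:87858265-87937047, plus strand) was not listed in mESCs. In CPCCs it stood at 111 CPM in S04, 253 CPM in S05 and 151 CPM in S06, with a mean of 172 ± 73.1 CPM (SD, n = 3), from between 1268 and 2149 counts a library. S05 was 2.28 times S04, so the level varied within CPCCs, but each CPCC library was far above the floor. Against 3 counts per mESC library, the CPCC mean was at least 384-fold higher, and leaving out 1 CPCC library at a time moved this bound between 293-fold (without S05) and 452-fold (without S04). With no mESC value the gene was not tested in the main fit. Setting missing values at 0 or 3 counts gave log2 fold changes of 13.5 and 8.51, which rest on filled mESC values. The antisense gene *Igf1os* overlaps the gene body and shares 0 exonic bases with it.

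The receptor gene *Igf1r* (ENSMUSG00000005533, chr7:67952257-68233668, plus strand) encodes the tyrosine kinase that binds IGF1. It stood at 29.3 CPM in S01, 39.3 CPM in S02 and 36.5 CPM in S03, and at 177 CPM in S04, 163 CPM in S05 and 152 CPM in S06. The cell types did not overlap, and the receptor was the steadiest member within CPCCs, its highest library being 1.16 times its lowest. The means were 35.0 ± 5.14 CPM in mESCs and 164 ± 12.5 CPM in CPCCs (SD, n = 3 each). By edgeR's quasi-likelihood test the log2 fold change was 2.30 (standard error, SE, 0.20, adjusted p = 2.05e-05 over 12471 genes), a 4.91-fold rise.

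Across all genes tested, 61.4% passed the same threshold of an adjusted p under 0.05, and 31.7% passed it with a higher level in CPCCs. All 6 members listed for both cell types were tested, and all 6 were called higher in CPCCs. *Igfbp5* and *Igfbp7* reached the test through their CPCC counts alone, so that they could hardly enter it without differing. The other 4 (*Igf1r*, *Igfbp2*, *Igfbp3* and *Igfbp4*) would have passed the count filter on the mESC libraries alone. The cell types did not overlap in any of the 6, against 33.8% of all genes tested in that direction. The median log2 fold change over all genes tested was 0.03.

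Among the binding proteins, *Igfbp2* (ENSMUSG00000039323, chr1:72824480-72852474, plus strand) had the highest mESC level and the smallest change. It encodes a binding protein abundant in fetal tissues. Its mESC levels were 315 CPM in S01, 283 CPM in S02 and 262 CPM in S03, with a mean of 287 ± 26.7 CPM (SD, n = 3). Its CPCC levels were 481 CPM in S04, 724 CPM in S05 and 697 CPM in S06, with a mean of 634 ± 133 CPM (SD, n = 3). The lowest CPCC library was above the highest mESC library. The log2 fold change was 1.19 (SE 0.17, adjusted p = 0.0003 in edgeR's quasi-likelihood test), a 2.29-fold rise, which did not pass a test for a change beyond 2-fold (edgeR's glmTreat, adjusted p = 0.133).

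*Igfbp3* and *Igfbp4* started lower in mESCs and rose further. *Igfbp3* (ENSMUSG00000020427, chr11:7206086-7215498, minus strand), the main IGF carrier of adult serum, stood at 16.0, 20.5 and 16.4 CPM in S01, S02 and S03. In CPCCs it reached 98.1 CPM in S04, 287 CPM in S05 and 154 CPM in S06. The cell types were apart, and S05 stood 2.92 times above S04. Its means were 17.6 ± 2.48 CPM and 179 ± 97.0 CPM (SD, n = 3 each), and its log2 fold change in edgeR's quasi-likelihood test was 3.39 (SE 0.36, adjusted p = 6.62e-05), or 10.5-fold.

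*Igfbp4* (ENSMUSG00000017493, chr11:99040005-99052655, plus strand) encodes the binding protein that PAPPA cleaves. It stood at 27.2, 10.5 and 28.7 CPM in S01, S02 and S03, and at 173, 240 and 184 CPM in S04, S05 and S06. S02 was low among the mESC libraries, with 71 counts, which made this the member with the widest spread among those well counted in mESCs (highest over lowest 2.74). In CPCCs the ratio was 1.39. The means were 22.1 ± 10.1 CPM and 199 ± 35.9 CPM (SD, n = 3 each), and the log2 fold change was 3.23 (SE 0.36, adjusted p = 7.96e-05 in edgeR's quasi-likelihood test), or 9.36-fold.

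*Igfbp5* and *Igfbp7* went from a few counts to among the most abundant members. *Igfbp5* (ENSMUSG00000026185, chr1:72858065-72874865, minus strand), a binding protein that also attaches to extracellular matrix, had 1 count in S01, 4 in S02 and 9 in S03, or 0.155, 0.589 and 1.30 CPM. In CPCCs it stood at 155 CPM in S04, 539 CPM in S05 and 426 CPM in S06. The CPCC libraries lay far above all mESC libraries, and S04 was well below the other two. The means were 0.682 ± 0.580 CPM and 373 ± 198 CPM (SD, n = 3 each). The log2 fold change was 9.07 (SE 0.64, adjusted p = 6.84e-06 in edgeR's quasi-likelihood test). It ranked 7 from the top among the 12471 genes tested, which leave out genes listed for CPCCs only. The gene entered the test through its CPCC counts alone and could hardly enter it without differing, which limits its p-value and rank. With 14 counts over the mESC libraries the size is loosely set: the ratio of summed counts per summed total was 504 with a counting interval of 301 to 923, and the log2 fold change was 9.93 without S03.

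*Igfbp7* (ENSMUSG00000036256, chr5:77349240-77408045, minus strand) had only 4 counts in S01, 10 in S02 and 15 in S03, or 0.621, 1.47 and 2.17 CPM. In CPCCs it stood at 816 CPM in S04, 654 CPM in S05 and 457 CPM in S06, and here S04 was the highest CPCC library. The means were 1.42 ± 0.777 CPM and 642 ± 180 CPM (SD, n = 3 each). The log2 fold change was 8.87 (SE 0.45, adjusted p = 1.88e-06 in edgeR's quasi-likelihood test), which ranked 10 among the 12471 genes tested. Like *Igfbp5*, the gene entered the test through its CPCC counts alone, so its p-value and rank carry the same limit. The ratio of summed counts per summed total was 459 (319 to 685 by counting error). The gene body overlaps *Polr2b* and the antisense gene *Gm34648*, and 7.03% of its exonic bases are shared with an overlapping gene. The strand used in counting is not given in the sources used here.

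*Igfbp6* (ENSMUSG00000023046, chr15:102144186-102149512, plus strand), whose product prefers IGF2 over IGF1, was hardly detected in either cell type. It was not listed in mESCs, and in CPCCs it had 11 counts in S04, 4 in S05 and 3 in S06, or 0.962, 0.470 and 0.354 CPM. A level of 3 counts in the same libraries is 0.262, 0.353 and 0.354 CPM. No fold is given, since both cell types were at or near the floor and a difference was not detectable at this depth.

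**Figure D2:**
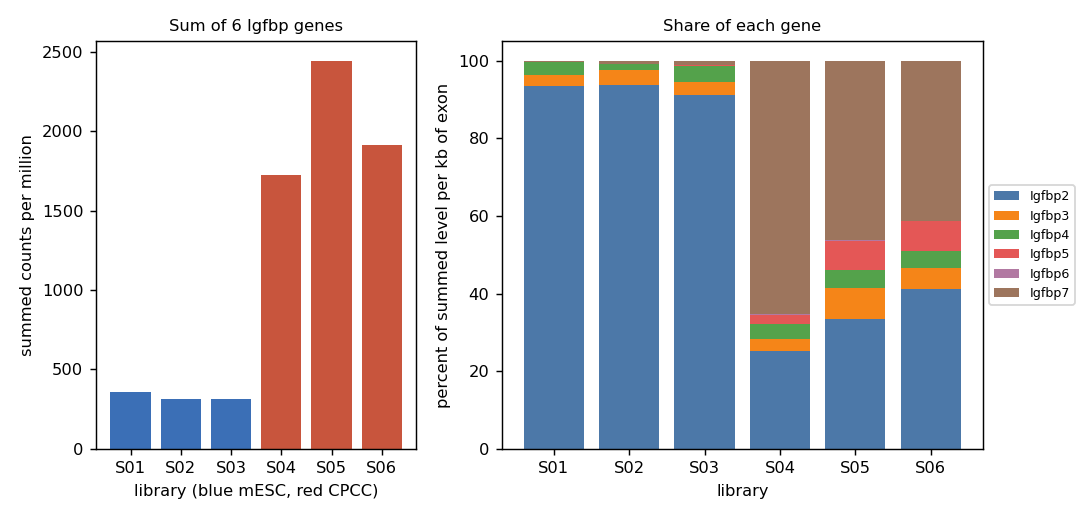
Left, summed CPM of the 6 binding protein genes in each library, with blue for mESC and red for CPCC. Right, the percent of each gene in the summed level per kilobase of exon, which goes from mostly *Igfbp2* in S01 to S03 to mostly *Igfbp7* and *Igfbp2* in S04 to S06.

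The binding proteins together took 359 CPM in S01, 316 CPM in S02 and 311 CPM in S03, and took 1723, 2444 and 1917 CPM in S04, S05 and S06. The mean sum went from 329 ± 26.5 CPM to 2028 ± 373 CPM (SD, n = 3 each), 6.17 times as much, or from 0.0329% to 0.203% of all counts. The make-up of the sum differed as well. Per kilobase of exon, *Igfbp2* made up 92.8% ± 1.43 of the summed level in mESCs and 33.3% ± 7.96 in CPCCs (SD, n = 3 each). *Igfbp7* went from 0.726% ± 0.436 to 50.9% ± 12.7 (SD, n = 3 each), with 65.4% in S04, 46.3% in S05 and 41.2% in S06. *Igfbp5* went from 0.0711% ± 0.0633 to 5.97% ± 3.01 (SD, n = 3 each). The shares of *Igfbp3* were 3.38% and 5.41%, and those of *Igfbp4* 3.00% and 4.33%. The shares depend on the length used. As a share of the counts themselves, CPCCs had 31.3% *Igfbp2*, 32.6% *Igfbp7* and 17.7% *Igfbp5*. Per kilobase of coding sequence they had 30.1%, 30.8% and 19.2%. In mESCs *Igfbp2* made up 87.2% of counts and 85.9% per kilobase of coding sequence. These sums and shares carry no test.

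A pair of the binding protein genes are neighbours with unlike changes. *Igfbp2* and *Igfbp5* lie on chromosome 1 with 5590 bases between them and are transcribed toward each other. Within a library the log2 ratio of *Igfbp2* counts to *Igfbp5* counts, in which gene length cancels between cell types, was 10.99 in S01, 8.91 in S02 and 7.65 in S03. It was 1.64 in S04, 0.42 in S05 and 0.71 in S06. The mean log2 ratio was 9.18 in mESCs and 0.92 in CPCCs, and the libraries of the cell types did not overlap. The mESC ratios rest on *Igfbp5* counts of 1, 4 and 9 in S01, S02 and S03. Since *Igfbp5* was tested through its CPCC counts alone, the lack of overlap could hardly fail to appear. *Igfbp3* has *Igfbp1* as its neighbour on chromosome 11, with 3539 bases between them, and *Igfbp1* was listed in neither table.

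**Figure D3:**
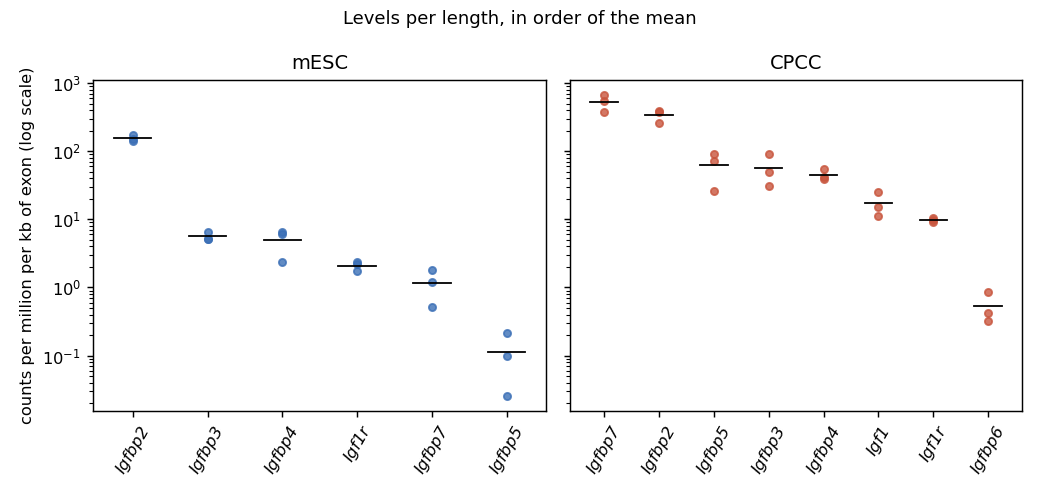
Levels of the members in CPM per kilobase of exon, on a log axis, in order of the mean within each cell type. Points are libraries and bars their mean. In mESCs *Igfbp2* stands well above the rest, and in CPCCs *Igfbp7* and *Igfbp2* overlap at the top.

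Levels between genes were compared per kilobase of GENCODE exon (CPM per kb). In mESCs *Igfbp2* led at 155 ± 14.5 CPM per kb, followed by *Igfbp3* at 5.62 ± 0.793 and *Igfbp4* at 5.003 ± 2.29 (SD, n = 3 each), and this second pair overlapped. *Igf1r*, at 2.09 ± 0.306, and *Igfbp7*, at 1.18 ± 0.642, also overlapped, and *Igfbp5* came last at 0.114 ± 0.0965 CPM per kb. In CPCCs *Igfbp7*, at 531 ± 149, and *Igfbp2*, at 343 ± 72.0 CPM per kb, were the highest and their libraries overlapped. *Igfbp5*, *Igfbp3* and *Igfbp4* formed a middle group at 62.1 ± 32.9, 57.3 ± 31.0 and 45.0 ± 8.13 CPM per kb, each overlapping the next. *Igf1* followed at 17.3 ± 7.38, *Igf1r* at 9.79 ± 0.744 and *Igfbp6* at 0.536 ± 0.290 CPM per kb, and these 3 did not overlap. Per kilobase of coding sequence, mESC *Igfbp4* (29.0) came before *Igfbp3* (20.1), *Igf1r* (7.14 to 9.57) no longer overlapped *Igfbp7* (0.661 to 2.31), and *Igfbp7* overlapped *Igfbp5* (0.191 to 1.60). In CPCCs *Igf1* moved up to the fourth place, since its exons cover 9904 bases and its longest coding sequence 495.

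**Figure D4:**
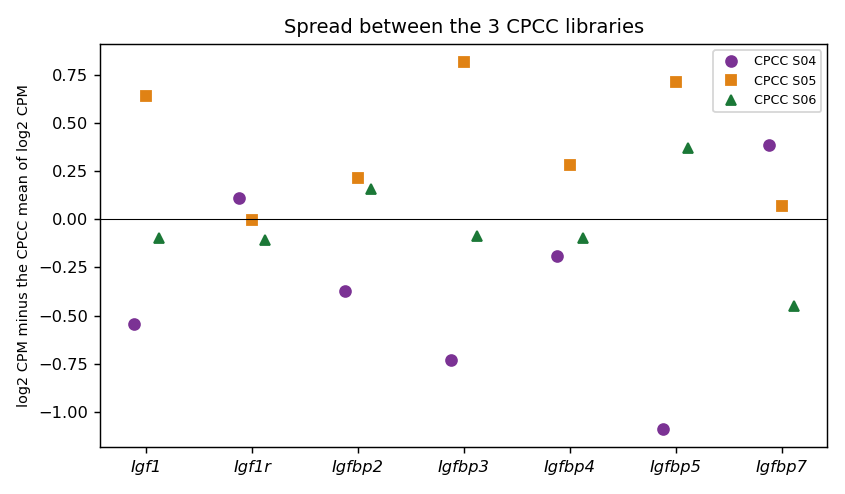
Each CPCC library's log2 CPM minus the mean of the 3 CPCC libraries, for the 7 members with more than a few counts. S04 is lowest for *Igf1*, *Igfbp2*, *Igfbp3*, *Igfbp4* and *Igfbp5* and highest for *Igf1r* and *Igfbp7*.

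The CPCC libraries differed from each other in a pattern over the members. S04 was the lowest library in 5 of 7 members and S05 the highest in the same 5 (*Igf1*, *Igfbp2*, *Igfbp3*, *Igfbp4* and *Igfbp5*), while *Igf1r* and *Igfbp7* were highest in S04 and lowest in S06. For *Igfbp5* the log2 deviations from the CPCC mean were -1.09 in S04, 0.71 in S05 and 0.37 in S06, and for *Igfbp7* they were 0.39, 0.07 and -0.45. The highest library over the lowest was 3.49 for *Igfbp5*, 2.92 for *Igfbp3*, 2.28 for *Igf1*, 1.79 for *Igfbp7*, 1.50 for *Igfbp2*, 1.39 for *Igfbp4* and 1.16 for *Igf1r*, against a median of 1.38 over the 2230 genes with a CPCC mean of at least 100 CPM. S04 also had the highest sums of smooth muscle, endoderm and cardiac precursor markers (10740, 10330 and 139 CPM) and the lowest sum of mESC markers (107.5 CPM), and S05 had the highest mesenchymal sum (8904 CPM against 6442 in S04 and 6228 in S06). S04 was the deepest library, with 11436062 counts. The part of these differences in the spread of the members was not tested.

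**Figure D5:**
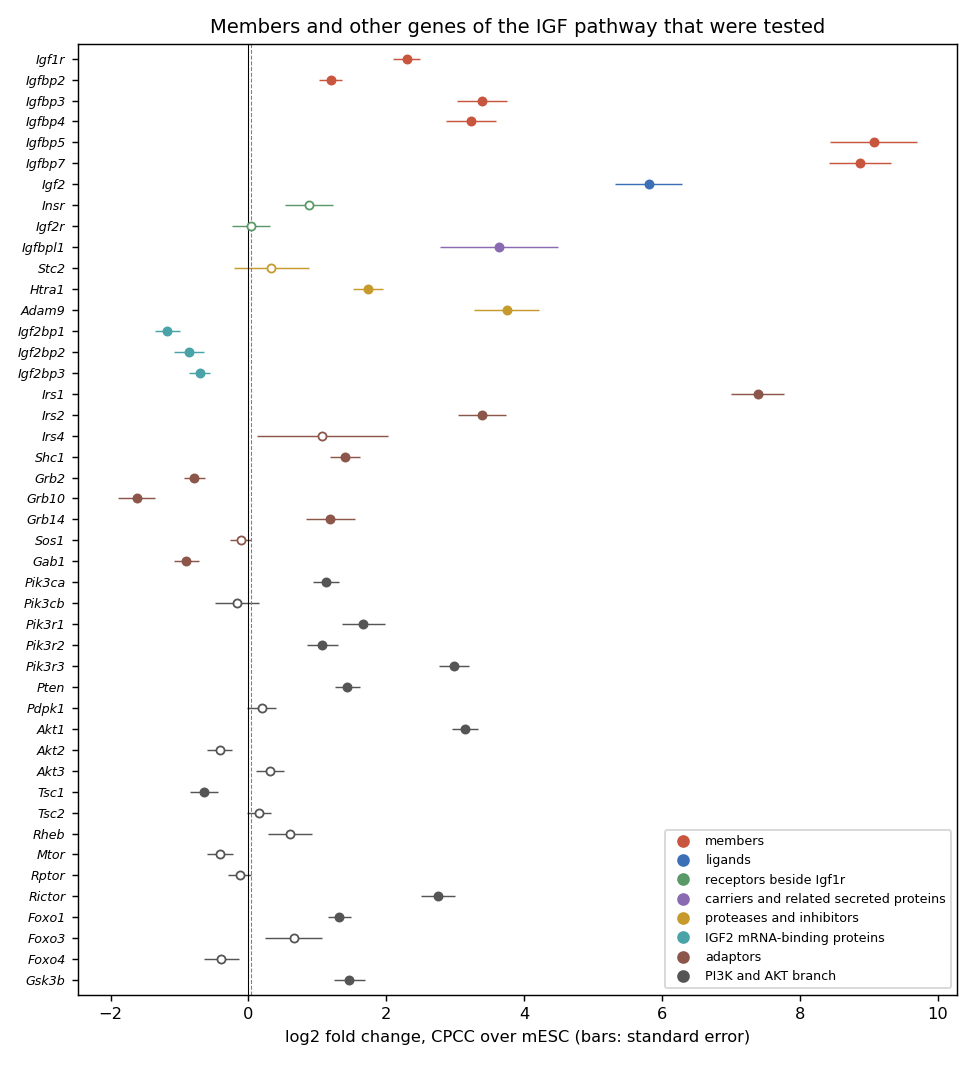
Log2 fold change, CPCC over mESC, of the 6 members tested and of the 39 other genes of the IGF pathway that were tested, with standard errors as bars. Filled points passed an adjusted p under 0.05 in edgeR's quasi-likelihood test and open points did not, and the dashed line is the median of all genes tested.

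A wider list of 51 IGF pathway genes, the members left out, was mixed in direction. Of the 39 that were tested, 17 were higher in CPCCs, 7 were lower and 15 did not pass, so that 61.5% passed against 61.4% of all genes tested (31.7% higher and 29.7% lower). Their median log2 fold change was 0.66, beside 0.03 over all genes. A further 7 were listed for CPCCs only, 1 for mESCs only and 4 (*Ins1*, *Ins2*, *Igfbp1* and *Pappa2*) in neither table.

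The other ligand gene, *Igf2*, stood at 3.57, 1.91 and 3.91 CPM in S01, S02 and S03 and at 260, 112 and 121.5 CPM in S04, S05 and S06. All CPCC libraries were above all mESC libraries, with S04 the highest, and the log2 fold change was 5.81 (SE 0.49, adjusted p = 1.68e-05 in edgeR's quasi-likelihood test). *Igf2os* and *Mir483* overlap it. Neither of the other receptors that could be tested passed, and they are named here after their values were seen. *Insr*, the insulin receptor, stood at 27.1 ± 13.7 CPM in mESCs and 48.0 ± 5.91 CPM in CPCCs (SD, n = 3 each), with a log2 fold change of 0.88 (SE 0.35) and an adjusted p of 0.0542 in edgeR's quasi-likelihood test. *Igf2r*, the receptor that clears IGF2, stood at 53.9 ± 7.54 and 52.1 ± 17.2 CPM (SD, n = 3 each), with a log2 fold change of 0.04 (SE 0.28) and an adjusted p of 0.917 in the same test by edgeR. *Insrr*, an orphan relative of the insulin receptor, was listed for CPCCs only, at a mean of 1.13 CPM. It stood at 0.787, 2.35 and 0.236 CPM in S04, S05 and S06, so the mean leans on S05. The S06 level was below that of 3 counts (0.354 CPM).

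Of 8 proteases and their inhibitors, several of which control IGF outside the cell by cutting binding proteins, 4 were listed for CPCCs only, 3 were tested and 1 was in neither table. *Pappa*, the protease that cleaves IGFBP4, reached 221, 140 and 102 CPM in S04, S05 and S06, a mean of 154 ± 60.7 CPM (SD, n = 3) and at least 345-fold above the mESC floor. *Adam12*, a metalloprotease that cleaves IGFBP3 and IGFBP5, had a mean of 86.6 ± 10.3 CPM (SD, n = 3), at least 194-fold above it. *Prss23*, a secreted serine protease, stood at 1711, 828 and 589 CPM in S04, S05 and S06. Its mean of 1043 ± 591 CPM (SD, n = 3) was at least 2332-fold above the mESC floor, a bound that leans on S04. The antisense gene *Prss23os* overlaps *Prss23*. *Stc1*, a stanniocalcin that inhibits PAPPA, was at 10.6 ± 1.88 CPM (SD, n = 3), at least 23.8-fold above the mESC floor. Of the 3 tested genes in this class, *Htra1* (83.0 and 264 CPM) and *Adam9* (13.4 and 168 CPM) rose, with log2 fold changes of 1.73 and 3.75 (SE 0.22 and 0.47) and adjusted p of 0.000174 and 0.000166 in edgeR's quasi-likelihood test. *Adam9* was at 277 CPM in S04 against 105 and 120 CPM in S05 and S06, and its log2 fold change was 3.08 without S04. *Htra1* overlaps *Fgfr2*. *Stc2*, the remaining one, stood at 2.82 and 3.50 CPM and did not pass. Among carriers and related secreted proteins, *Igfals*, which encodes the acid-labile subunit of the serum IGF complex, was listed for mESCs only, at 16.5 ± 4.11 CPM (SD, n = 3), so that CPCCs were at least 51.1-fold lower. *Igfbpl1* stood at 1.55, 2.06 and 1.16 CPM in S01, S02 and S03, and at 1.92, 27.3 and 30.3 CPM in S04, S05 and S06. S04 lay within the range of the mESC libraries, so the cell types overlapped. The log2 fold change was 3.63 (SE 0.86, adjusted p = 0.00531 by edgeR), and the gene entered the test through its CPCC counts alone. *Kazald1* was listed for CPCCs only, at 1.82 CPM, as was *Esm1*, at 0.547 CPM and close to the floor.

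The 3 IGF2 mRNA-binding proteins, which bind *Igf2* and other transcripts in the cytoplasm, all fell. Over all genes tested, 29.7% were called lower. *Igf2bp1* went from 397 ± 52.8 to 170 ± 38.0 CPM (SD, n = 3 each), a log2 fold change of -1.18 (SE 0.18, adjusted p = 0.000462 in edgeR's quasi-likelihood test). *Igf2bp2* went from 126 ± 4.57 to 66.0 ± 14.5 CPM (SD, n = 3 each), a log2 fold change of -0.86 (SE 0.22, adjusted p = 0.00760 by edgeR). Neither passed the test for a change beyond 2-fold. *Igf2bp3*, with a log2 fold change of -0.70, is named here to complete the class.

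Inside the cell, 4 of 9 adaptor genes rose, 3 fell and 2 did not pass, so that 77.8% passed beside 61.4% of all genes tested. *Irs1*, a main substrate of the receptor, stood at 2.33, 1.18 and 1.01 CPM in S01, S02 and S03 and at 305, 215 and 199 CPM in S04, S05 and S06. The CPCC libraries were all above the mESC libraries. Its log2 fold change was 7.39 (SE 0.38, adjusted p = 1.88e-06 in edgeR's quasi-likelihood test), and like *Igfbp5* and *Igfbp7* it entered the test through its CPCC counts alone. *Irs2*, the second substrate, went from 13.4 ± 1.82 to 139 ± 66.3 CPM (SD, n = 3 each), a log2 fold change of 3.39 (SE 0.35, adjusted p = 5.42e-05 by edgeR). In S04 it was at 64.7 CPM, below 158 CPM in S05 and 193 CPM in S06, the opposite order to *Irs1*. In the branch of PI3K and AKT, 9 of 20 rose, 1 fell and 10 did not pass, so that 50% passed beside 61.4% of all genes tested. *Akt1*, the kinase downstream of PI3K, stood at 12.9 ± 1.21 and 109 ± 2.75 CPM (SD, n = 3 each), a log2 fold change of 3.14 (SE 0.19, adjusted p = 3.14e-06 in edgeR's quasi-likelihood test). *Pik3r3*, a regulatory subunit of PI3K, stood at 8.37 ± 0.670 and 63.2 ± 6.28 CPM (SD, n = 3 each), a log2 fold change of 2.98 (SE 0.22, adjusted p = 9.10e-06 by edgeR). *Gm9747* overlaps *Irs1*, *9530052E02Rik* overlaps *Irs2* and *Gm49337* overlaps *Pik3r3*, so their reads could be shared.

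Over the 6 libraries, the genes whose log2 CPM followed a member most closely were sought among all genes tested by the root mean square of the difference in log2 CPM centred on each gene. *Igf1r* was nearest to *Zfp560* (difference 0.10) and *Mapkapk2* (0.11). *Igfbp2* was nearest to *R3hdm4* (0.04) and *Glt8d1* (0.06), *Igfbp3* to *Dbndd2* (0.21) and *Igsf9* (0.26), and *Igfbp4* to *Elovl4* (0.21) and *Gm1976* (0.23). *Igfbp7* was nearest to *Fkbp10* (0.27), which encodes a collagen chaperone of the endoplasmic reticulum, and to *Nrp1* (0.30), which encodes a co-receptor for semaphorins and VEGF. For *Igfbp5* the nearest were *Fkbp10* (0.69) and *Igfbp7* itself (0.75), both less close than the nearest genes of the other members. *Igfbp5* and *Igfbp7* differ in their order within CPCCs. These values describe 6 libraries of 2 cell types and carry no test.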

How the data were processed

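Bulk RNA-seq of 3 mESC and 3 CPCC samples was used. PolyA cDNA was made with SMART-Seq v4 and libraries with Nextera XT. The authors deposited expected counts per gene, neither normalized nor split by allele, in 1 table for each cell type; 17.9% to 21.5% of a library's values are not whole. The submitters' processing notes name STAR 2.7 and mm10; the counter and the use of strand are not given in the sources used here. Columns were assigned to a cell type by table, and carry no replicate number.

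Counts were rounded. Of 13001 genes in both tables, filterByExpr removed 530 and 12471 were tested with edgeR 4.0.16 (R 4.3.3; quasi-likelihood, TMM over the shared genes, Benjamini-Hochberg adjusted p under 0.05). The study's methods name DESeq2 for this comparison, which was the alternative (version 1.42.0). CPM divides by the table total of 1 library and is not TMM-scaled. The standard error is the log2 fold change over the square root of F. Genes in 1 table only were given bounds against 3 counts per library. Intervals are exact Poisson (95%) and cover counting error only. The floor is a fixed value taken from the listing cut and has no interval, so the bounds do not cover counting error. P-values measure the spread between these libraries, which differed by more than counting noise (chi-square per degree of freedom 4.77 to 65.0 between libraries of a cell type). Exon lengths came from GENCODE M21 (GRCm38), and gene positions and promoters from RefSeq GRCm38.p6. Log2 CPM for the nearest genes used a prior count of 2.

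The members, lists and tests were chosen with earlier results of these data known. Named were the members, up to 2 genes past the threshold with the largest change in each pathway class, every pathway gene in 1 table only, and the 2 nearest genes of each member in both tables. On simulated counts for 13001 genes with 200 changed, edgeR recovered 184 and called 6 unchanged genes, and DESeq2 recovered 180 and called 10. Far fewer genes changed there than were called in the data, and the changed genes were drawn from those above a count minimum. All genes had the same spread. The simulation therefore does not cover normalization when many genes change, or genes with few counts in mESCs. Alternatives were DESeq2, other normalizations and filters, missing genes at 0 or 3 counts, whole-table library sizes, a change beyond 2-fold, coding length and leaving out each library. Figures were drawn with matplotlib 3.10.9 in Python 3.11.15. Protein sequences and allele-specific expression were not analysed here.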

Additional observations from a re-analysis of the deposited data

How the results depend on the processing

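Among the members and the genes named by the stated rule, no sign of a log2 fold change turned. This holds for every alternative that gave a value. *Insr*, *Igf2r*, *Stc2* and *Igf2bp3*, named outside that rule, were not followed through the alternatives. The 6 members tested stayed past the threshold with DESeq2, with the other normalizations, without a filter, with whole-table library sizes and without any 1 library. At 10 or more counts in every sample 4 were called, since *Igfbp5* and *Igfbp7* were then not tested. *Igf1*, without mESC values, is left out of these counts. With missing genes at 0 or 3 counts, 7 members were called, *Igf1* among them, but its mESC values were then filled in and not measured. For a change beyond 2-fold 5 were called: *Igfbp2* (log2 fold change 1.19) gave an adjusted p of 0.133 by edgeR, and *Igf2bp1*, *Igf2bp2*, *Glt8d1* and *R3hdm4* (-1.18, -0.86, 1.17 and 1.20) were likewise not past it. The split of calls was 51.3% to 52.3% higher in CPCCs over 5 scalings. Over the fits without 1 library, calls ranged from 6536 to 7895 over all genes and from 23 to 26 in the pathway list, and the summed binding protein level from 313 to 338 CPM in mESCs and from 1820 to 2181 CPM in CPCCs. The log2 ratio of *Igfbp2* to *Igfbp5* ranged from 8.28 to 9.95 in mESCs and from 0.57 to 1.17 in CPCCs, and the bound for *Igf1* from 293-fold to 452-fold.

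Levels per length depend on the length. Per kilobase of coding sequence, the CPCC means were 693 CPM per kb for *Igfbp2*, 684 for *Igfbp7*, 459 for *Igfbp5*, 347 for *Igf1*, 261 for *Igfbp4*, 205 for *Igfbp3*, 40.0 for *Igf1r* and 0.834 for *Igfbp6*. *Igfbp2* then came before *Igfbp7*, and *Igf1* before *Igfbp4* and *Igfbp3*. The shares of the binding proteins by counts and by coding length, which the report gives, were added after the data were seen. Levels rise because the coding part is shorter than the exons. No paired analysis was possible because the columns carry no replicate numbers. Depth limits *Igfbp6* in both cell types, and *Igfbp5* and *Igfbp7* in mESCs.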
